A study of Mus musculus with 7 samples.

Results

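At 575 autosomal open sites, one neural progenitor line took most of its reads from a single parental allele while the other line did not share that skew. The sites were drawn from chromosomes 1 to 19 of the peak list of the wild-type line, which held 39692 autosomal peaks among 41126 in all. Of these, 26181 overlapped a peak of the deltaFT line, and 20343 of those had at least 20 allele-assigned reads in both lines. Those 20343 are the tested sites below. A site was taken as a member when the first-listed allele held at most 25% or at least 75% of the allelic reads in a line and that share differed by at least 25 points from the share in the other line. The 575 members are 2.83% of the tested sites. The members were thus chosen by the allele shares of both progenitor lines, and these shares are given as a description with no test. A site open in 1 line only could not be a member, because it has no match in the other.

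The study measured open chromatin by ATAC-seq, in which the Tn5 transposase inserts sequencing adapters into accessible DNA. The 3 female lines used here come from a 129S1 x Cast:EiJ F1 cross, each 1 sample. They are embryonic stem cells (mESC, line F1216, in serum and LIF), wild-type neural progenitor cells (NPC, line C2, in N2/B27 with FGF and EGF) and NPC with the deltaFT deletion (line sgdgb2, same medium). The deletion takes out an X-linked boundary region that holds the Dxz4 repeat and lies on none of the autosomes described here. Per the labels each line had 2 libraries of 50K cells, but the allele counts are given once per line. The share therefore has no replicate error, and its 95% intervals (exact Clopper-Pearson) cover counting error only. Each genotype is 1 line, so the deletion and the history of a line cannot be told apart. The source label of the mESC sample names neural progenitors, while its title and medium are those of mESC. The title was followed, and marker loci of either cell type were not looked up by name. Peak lists of 4 samples of male TXY mESC, in which Xist is induced by doxycycline, were used only to ask whether a site was open there. They come from the J1 line with an intact Xist or with RepA deleted (deltaRepA), each untreated or given 2 ug/mL doxycycline for 48 h.

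In a cell with 2 parental genomes a regulatory site is usually open on both copies. Known exceptions include sites that differ in sequence between the parents, which can lean the same way in different lines of the cross. Others are imprinted sites, which follow the parent of origin, and sites at which a cell lineage has kept open either copy and passed that state on through division. Lines grown from few cells can differ in the last kind, and neural progenitor lines are a common system for studying it. Changes in the number of copies of a chromosome segment also move the allelic reads of every site in it.

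The 4 combinations of skewed line and favoured allele held between 109 and 165 sites each. In 288 sites the wild-type line alone was skewed, 130 of them (0.639% of tested sites) with few first-listed reads and 158 (0.777%) with few second-listed reads. In 274 sites the deltaFT line alone was skewed, 165 (0.811%) with few first-listed and 109 (0.536%) with few second-listed reads. The remaining 13 sites (0.0639%) were skewed in both lines towards opposite alleles, so the label of a skew in 1 line holds for 562 of the 575. No member was skewed to the same side in both lines. The rule nearly fixes this, because shares past the same limit cannot differ by more than the required difference. The absence of such sites is therefore not a result.

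**Figure D1:**
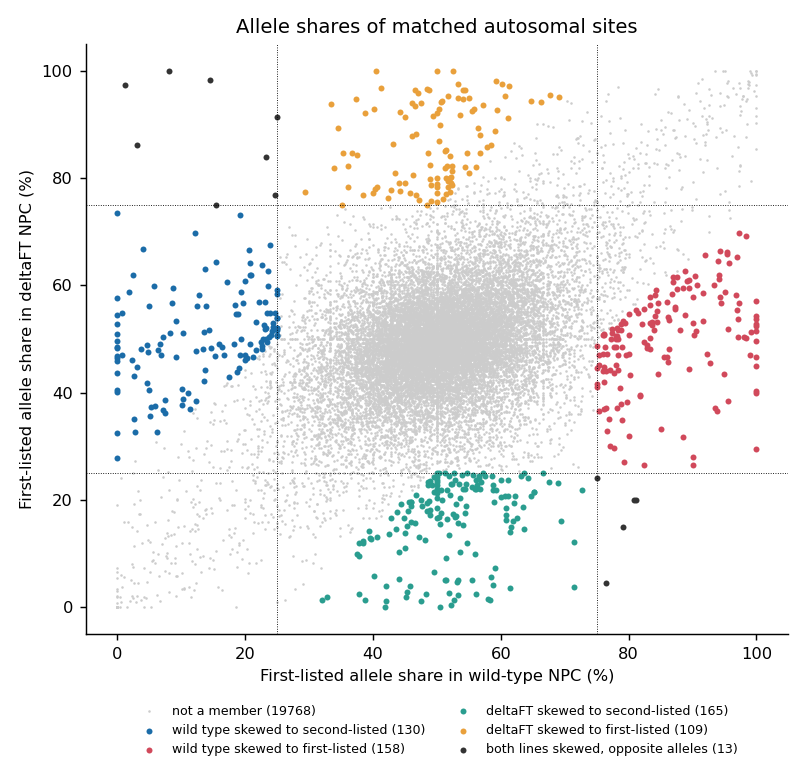
Share of allelic reads from the first-listed allele (%) in wild-type NPC (horizontal) and deltaFT NPC (vertical) at the 20343 tested sites; dotted lines mark 25% and 75%, colours the 5 classes of members. Coloured groups of 130, 158, 165 and 109 sites stand at the sides and 13 sites in 2 of the corners, around a grey cloud near 50% in both lines.

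The skew was far beyond the limit at some sites, and the other line was mostly near equality. The low allele, meaning the one with fewer reads in the skewed line, held a median of 13.8% of wild-type reads at sites skewed to the second-listed allele and 15.5% at sites skewed to the first-listed one. In deltaFT-skewed sites the medians were 17.9% and 14.7%. The low allele held at most 5% of reads at 103 of the 562 sites and had no read at 33. In the other line it held 40% to 60% at 427 of the 562. For scale, 10815 of the 20343 tested sites had shares of 40% to 60% in both lines. The rule also keeps the other line at least 25 points from the skewed share, so near equality is not read as a trait of members. The 95% intervals of both lines did not overlap at 478 of the 575 members (83.1%), where they were apart at 10.7% of all tested sites. The rule used the same shares, so nothing is read from that count.

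The reads of each allele are given next as a description, because the rule picks sites with few low-allele reads in a line and so fixes most of their change. The counts also come from peaks called separately in each line. Among the 562 sites the peak had a median width of 413 bp in the skewed line and 497 bp in the other, and it was narrower in the skewed line at 376. Reads of each allele were set against all autosomal allelic peak reads of the line, with 1 read added, and compared as the skewed line over the other. At wild-type sites skewed to the second-listed allele the low allele changed by a median log2 of -2.44 and the favoured allele by 0.23. At wild-type sites skewed to the first-listed allele the medians were -2.30 and 0.25. DeltaFT sites skewed to the first-listed allele had -2.62 and 0.09. DeltaFT sites skewed to the second-listed allele differed most from this pattern, with -1.99 for the low and 0.42 for the favoured allele, and 50 of these 165 had a favoured allele at least 1 log2 unit higher. In the other 3 classes that number was 23 of 130, 27 of 158 and 16 of 109. The total reads of the site, normalized to autosomal peak reads, changed in the skewed line by medians of -0.44, -0.31, -0.39 and -0.76 in the 4 classes, wild type first and the second-listed direction first. Over all tested sites deltaFT over wild type had a median of 0.09. An absolute change of at least 1 was seen at 32.0% of members and 16.5% of tested sites.

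**Figure D2:**
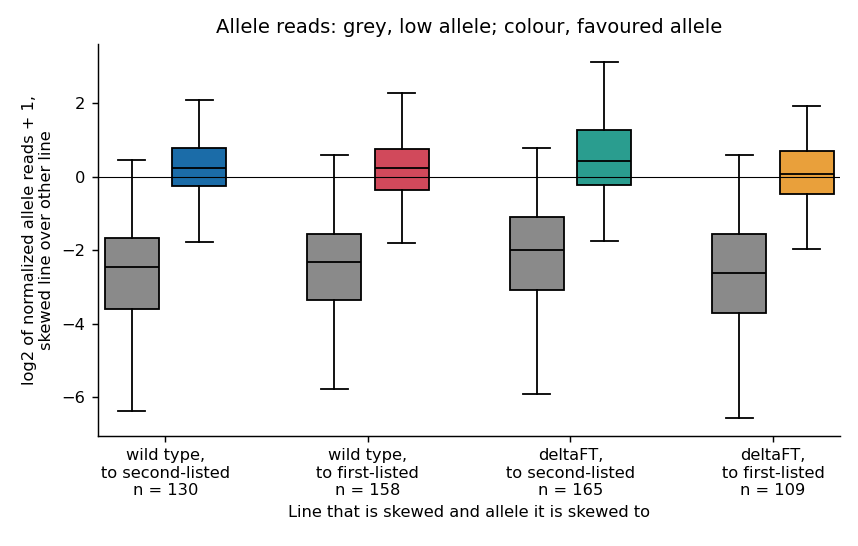
Log2 change of normalized allele reads in the skewed line over the other line, by class; grey boxes are the low allele, coloured boxes the favoured allele, with median, quartiles and whiskers to the last value within 1.5 quartile ranges. The grey medians lie between -2.62 and -1.99, the coloured ones between 0.09 and 0.42.

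Among sites at which the wild-type line was skewed to the second-listed allele, the 5 with most allelic reads are described. At chr17:21669069-21669791 wild type had 4 first-listed and 513 second-listed reads, deltaFT 332 and 373, and mESC 148 and 219. At chr4:19502036-19502626 wild type had 0 and 349, deltaFT 280 and 298, and mESC 122 and 169. At chr7:49897669-49898336 wild type had 3 and 401, deltaFT 245 and 202, and mESC 187 and 136. These 3 sites were almost closed on the first-listed allele in wild type alone, with shares of 0.774%, 0% and 0.743%, while mESC read both alleles at each. At chr8:30329778-30330444 the wild-type counts were 37 and 236 (13.6%), those of deltaFT 178 and 243 and those of mESC 198 and 193. At chr12:96933212-96934173 wild type had 93 and 317 (22.7%) and deltaFT 672 and 382 (63.8%). That site also leaned to the second-listed allele in mESC, with 172 and 559 reads, on a chromosome where mESC as a whole was unequal.

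Wild-type sites skewed to the first-listed allele were led by chr6:133055045-133055871, just past the limit, with 496 first-listed and 139 second-listed wild-type reads (78.1%) and 334 and 307 deltaFT reads. The next was far past it. At chr5:8797934-8798743 wild type had 429 and 7, deltaFT 405 and 180, and mESC 141 and 81. A pair of neighbouring wild-type peaks followed, at chr5:28397345-28398003 with 155 and 3 reads and at chr5:28398304-28398742 with 100 and 3. Both matched the same deltaFT peak, which had 372 and 366 reads, so they count 1 deltaFT measurement. This is 1 of 2 deltaFT peaks that were matched by more than 1 member, 4 members in all. That deltaFT peak spans 1612 bp and held 1818 reads in total, while the wild-type peaks span 659 and 439 bp and held 419 and 310, so their reads do not cover the same sequence. At chr17:48651886-48652463 wild type had 288 and 35 (89.2%) and deltaFT 290 and 186 (60.9%).

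Among sites at which deltaFT was skewed to the second-listed allele, chr12:117285496-117286508 had most reads, 673 and 722 in wild type and 11 and 413 (2.59%) in deltaFT. Its mESC counts were 227 and 771. At chr17:21703578-21704306 wild type had 413 and 525 and deltaFT 22 and 397 (5.25%). This peak lies 34.5 kb from the wild-type site on the same chromosome described above, so the first-listed allele was nearly silent at one of the neighbours in each line. At chr5:8056174-8057009 the counts were 386 and 354 in wild type, 2 and 400 (0.498%) in deltaFT and 101 and 98 in mESC. At chr10:117540172-117540789 wild type had 235 and 499 (32.0%), deltaFT 6 and 413 (1.43%) and mESC 48 and 91 (34.5%). At chr7:6648916-6649606 the change was smaller, with 516 and 431 wild-type reads and 53 and 228 deltaFT reads (18.9%). The second-listed reads had log2 changes of -0.48, -0.35 and 0.09 at the chromosome 17, 10 and 5 sites, where both lines had peaks of similar width.

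DeltaFT sites skewed to the first-listed allele were led by chr10:31032676-31033816, with 432 and 297 wild-type reads, 306 and 6 (98.1%) in deltaFT and 162 and 150 in mESC. At chr13:67880359-67881198 wild type had 343 and 272 and deltaFT 129 and 10. The peak spans 840 bp in wild type and 374 bp in deltaFT, so the counts cover different lengths. At chr13:62725074-62725871 wild type had 242 and 236, deltaFT 247 and 15, and mESC 89 and 109. At this site the peak widths were close, 798 and 742 bp, and the first-listed reads had a log2 change of -0.05. At chr3:159158033-159158876 wild type had 245 and 271 and deltaFT 189 and 12. At chr19:34624832-34625655 wild type had 183 and 231 and deltaFT 228 and 19, and the site was not in the reproducible mESC list, although both mESC library lists held a peak there. In each of the 5 the deltaFT share was above 92%.

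The 2 progenitor lines read opposite alleles at 13 sites. These were skewed in both lines and had few reads. At chr7:150835123-150835703 wild type had 1 first-listed and 88 second-listed reads, and deltaFT 114 and 3. At chr1:171677652-171677931 the counts were 2 and 63 in wild type and 50 and 8 in deltaFT. At chr13:73468258-73468532 they were 9 and 53 in wild type against 58 and 1 in deltaFT. At chr2:170144785-170145113 the order was reversed, with 97 and 30 in wild type against 4 and 83 in deltaFT. In mESC these 4 sites were read from both alleles, with first-listed shares of 41.3%, 57.7%, 50.0% and 53.2%. At chr14:97000357-97000627 wild type had 15 and 46, deltaFT 40 and 12, and no mESC list held a peak there. Of the 13, 8 had at least 20 allelic reads in mESC and all 8 lay between 40% and 68.4%.

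The stem cell line played no part in choosing the members, and most members it could measure were read from both alleles there. Of the 575 members, 234 overlapped an mESC peak, or 40.7% (36.7% to 44.8%), next to 46.4% of tested sites. Members with at least 20 mESC allelic reads numbered 216. Of these, 202 had a first-listed share between 25% and 75% in mESC, or 93.5% (89.4% to 96.4%). Over all 8931 tested sites with that depth it was 97.1%, so 14 members (6.48%) lay outside where the background was 2.94%. The median mESC share of members was 48.6%, next to 49.3% over tested sites. Among the 208 of them that were skewed in 1 line, the low allele held a median of 11.6% in the skewed line, 50.6% in the other and 49.3% in mESC. Below 50% in mESC were 110 of these 208.

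**Figure D3:**
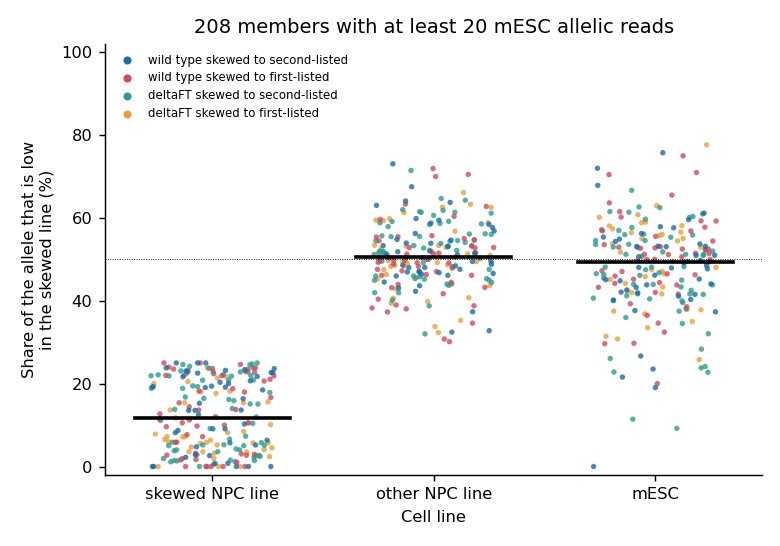
Share of allelic reads (%) held by the low allele of the skewed line, in the skewed NPC line, the other NPC line and mESC, for 208 members; each point is a site and bars are medians. The medians are 11.6%, 50.6% and 49.3%; the first group is bounded at 25% by the rule, and the mESC values were not used by it.

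The 14 members that were unequal in mESC included 7 on chromosome 12, on which mESC took 31.6% of reads at tested sites from the first-listed allele. Without chromosome 12, 96.6% of members (93.1% to 98.6%) were balanced in mESC, next to 98.3% of tested sites without it. In 11 of the 14 the allele that was low in the skewed progenitor line was also low in mESC. Some of these 11 lay on chromosome 12, where mESC leaned as a whole. Among those off chromosome 12 was chr19:23215119-23215849, with 0 first-listed and 24 second-listed reads in mESC. It had 3 and 30 in wild type, and 16 and 14 in the deltaFT line. Another was chr17:31391384-31391967, with 20 and 85 in mESC, 12 and 47 in wild type, with deltaFT at 13 and 15. At these sites 2 of the 3 lines leaned to the same allele. The opposite was seen at chr3:130648773-130649416, where mESC had 25 and 8 and wild-type NPC 0 and 55. The 3 sites in this paragraph were chosen after their values were seen. For scale, 421 tested sites were skewed to the same side in both progenitor lines, and 31 of the 80 with enough mESC reads (38.8%, 28.1% to 50.3%) lay outside 25% to 75% in mESC, 30 of them on that same side. Of the sites with 40% to 60% in both lines, 103 of 5781 (1.78%) did. Neither of these sets was recomputed without chromosome 12.

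In other features the members were somewhat weaker and narrower sites. The median member had 64 allelic reads in wild type and 74 in deltaFT, next to 112 and 133 over tested sites. The median width was 432 bp, next to 506 bp. Shares are less precise at such depth, and 291 of the members had at least 50 allelic reads in both lines. Among sites with at least 50 reads the share of members with an mESC peak was 52.9% (47.0% to 58.8%) next to 51.2%, so the share was not lower among members at that depth. All 575 members overlapped a peak in both library lists of wild type, and 575 and 574 did in the lists of deltaFT. Only peaks reproducible between libraries were used, so this was nearly fixed in advance. Over tested sites the shares were 100% in both wild-type lists and 99.9% in both deltaFT lists. In the male TXY mESC, 331 members (57.6%, 53.4% to 61.6%) were peaks in all 4 lists and 150 (26.1%, 22.5% to 29.9%) in none, next to 61.5% and 24.7% of tested sites.

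Members were found on every autosome, from 13 on chromosome 18 and on chromosome 19 to 61 on chromosome 11. As a share of tested sites they ranged from 1.44% on chromosome 9 to 4.88% on chromosome 11. The classes were spread unevenly. Chromosome 11 held 26 of the 158 wild-type sites skewed to the first-listed allele and 29 of the 165 deltaFT sites skewed to the second-listed one, but 3 of each of the other 2 classes. On that chromosome the tested sites as a whole read 57.5% first-listed in wild type and 47.6% in deltaFT. Chromosome 8 held 18 deltaFT sites skewed to the second-listed and 2 to the first-listed allele, with an overall 50.5% in wild type and 44.9% in deltaFT. Chromosome 4 held 19 of the 130 wild-type sites skewed to the second-listed allele, with 47.1% in wild type and 52.3% in deltaFT. In these cases the more numerous class leaned the same way as its chromosome. That did not hold for the wild-type sites of chromosome 8, of which 16 were skewed to the second-listed and 3 to the first-listed allele. Centring every share on its chromosome left 524 members.

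**Figure D4:**
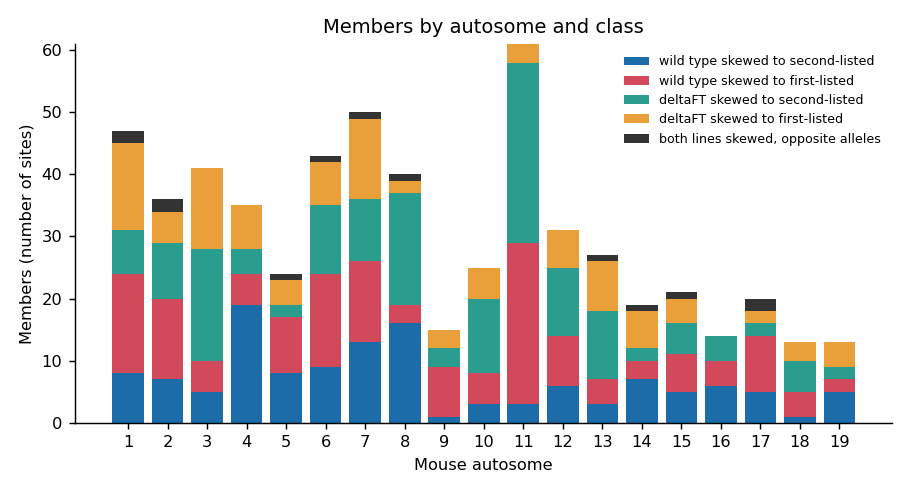
Number of members on each mouse autosome, stacked by class. Chromosome 11 has the most, 61, of which 29 are deltaFT sites skewed to the second-listed allele and 26 wild-type sites skewed to the first-listed allele.

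Most members stood among non-member sites that were not skewed as a group. Tested sites that were not members were pooled within 1 Mb of each member, which gave a value for 557 of the 562 members skewed in 1 line. This leaves out nearby members with the same skew, so the choice itself draws the pooled values towards 50%. The favoured allele held a median of 50.9% of reads at these neighbours in the skewed line and 49.3% in the other line. The pooled lean was largest at the nearest neighbours, which were 171 sites near 140 members. The most distant group held 15056 sites near 562 members. Pooled over members, the favoured allele held 57.2% in the skewed line at sites up to 10 kb away, 53.8% from 10 to 50 kb, 53.3% from 50 to 200 kb, 52.7% from 200 to 1000 kb and 52.5% from 1000 to 5000 kb. The pooled lean was thus still present at the greatest distance measured. In the other line these 5 values lay between 48.7% and 49.4%. The pools include members in stretches or on chromosomes that leaned as a whole and were not computed without them. They therefore do not show how far the lean of a typical member reaches. In 62 of the 557 members (11.1%) the neighbours held 60% or more of the favoured allele, and 48 of these 62 were deltaFT sites skewed to the second-listed allele. The others were 6 deltaFT and 6 wild-type sites skewed to the first-listed allele and 2 wild-type sites skewed to the second-listed one. Of the 6 wild-type sites 4 lay on chromosome 11, with neighbours at 61.6% to 67.2%. Over all tested sites the neighbours were at least 10 points from 50%, in either direction, at 3.14% in wild type and 4.28% in deltaFT.

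Those 48 deltaFT sites lay on 5 chromosomes. There were 24 on chromosome 11 between 84729782 and 96831441, 11 on chromosome 8 between 69019697 and 80074414, 6 on chromosome 3 between 60989790 and 69758644, 4 on chromosome 2 between 4366673 and 6372025 and 3 on chromosome 10 between 22588218 and 24736311. Their neighbours held a median of 67.7% second-listed reads in deltaFT and 47.2% in wild type. Read changes at these sites were unlike those of the other 117 sites of the class. The low allele changed by a median log2 of -0.66, the favoured allele by 1.46 and the total by 0.63, whereas at the other 117 the medians were -2.38, 0.17 and -0.75. The low allele held at most 5% of reads at 1 of the 48 and at 23 of the 117, with medians of 21.7% and 16.7%. In 30 of the 48 the low allele held at least 20% in deltaFT, and the lowest share was 2.23%. Total reads were higher in deltaFT at 38 of the 48, and the log2 changes ranged from -0.91 to 1.85. All 19 of the 48 with enough mESC reads were balanced in mESC, next to 97.1% of tested sites with that depth. This split was made after the values were seen, and whether the number of chromosome copies differed was not tested.

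Members of 1 class also formed runs, here sites of the same class with gaps of at most 1 Mb. Of the 575 members 409 stood alone, 78 were in pairs and 88 in 23 runs of at least 3. Within 1 Mb, 28.9% of members (25.2% to 32.8%) had another member of their own class. The interval treats members as independent, and no matching share over tested sites was computed. The share depends on the window, with 10.6% at 100 kb and 53.4% at 5 Mb. The closest such pair lay 0.362 kb apart, centre to centre, and whether close pairs are parts of 1 open site was not tested. Within 100 kb there were 42 pairs of members skewed in 1 line. Of these, 32 shared both the skewed line and the favoured allele, and 3 shared the line but not the allele. Sites skewed in different lines made up the rest, 2 pairs to the same allele and 5 to different alleles. Neighbouring sites are not independent, so these are descriptions.

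The run with most members held 7 of 19 tested sites at chr1:121809507-123077229, all skewed to the first-listed allele in deltaFT. Its members read 55.9% first-listed in wild type and 87.6% in deltaFT, from 273 and 215 reads and from 602 and 85 reads. The other 12 tested sites in the run read 43.5% and 57.7%, and 26 sites up to 1 Mb outside 50.4% and 66.0%. The strongest lean in it was at chr1:121809507-121810294, with 100 and 65 wild-type reads, 202 and 10 in deltaFT and 89 and 112 in mESC. The next run, at chr8:71717119-74135509, held 6 of 60 tested sites, at 51.6% in wild type and 20.6% in deltaFT. Its other 54 sites read 52.0% and 31.8%. The third, at chr11:95275927-96831441, held 6 of 19, at 55.2% and 23.3%, and its other 13 sites read 55.0% and 31.2%. The rule itself makes the members of a run its more extreme sites, so that difference is not a result. In the chromosome 8 and 11 runs the other tested sites also leaned to the second-listed allele in deltaFT. Both lie in the stretches named above. The chromosome 1 run also leaned as a whole, and 5 of its sites had neighbours at 60.5% to 62.6% first-listed in deltaFT.

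In 3 runs every tested site was a member, and all 3 were skewed in wild type. These and 1 further run were chosen after their values were seen. At chr6:114044322-114354508 all 6 tested sites were skewed to the first-listed allele in wild type, with shares of at least 76.9% there and of 26.6% to 53.2% in deltaFT. Pooled, they read 302 first-listed and 66 second-listed wild-type reads and 232 and 309 deltaFT reads, while 29 sites up to 1 Mb outside read 51.8% and 49.1%. None of the 6 had an mESC peak. At chr8:29252395-30330444 all 4 tested sites were skewed to the second-listed allele, with 40 and 403 reads in wild type. DeltaFT had 384 and 498 at these sites, and 3 tested sites up to 1 Mb outside read 52.1% in wild type and 55.9% in deltaFT. The sites there had 0, 0, 3 and 37 first-listed reads in wild type, and 1 of the 4 had an mESC peak, at 50.6%. The third lay at chr1:83628327-84384424, with 3 sites at 93.9% or more in wild type and between 40% and 66.0% in deltaFT, while 11 sites outside read 47.7% and 46.5%. A further run of 5 of 6 sites, at chr8:117937995-119028980, read 23 and 244 in wild type, against 297 and 358 in deltaFT. The remaining site read 2.47% in wild type and 25% in deltaFT, short of the difference needed. Sites up to 1 Mb outside it read 54.5% and 49.0%.

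**Figure D5:**
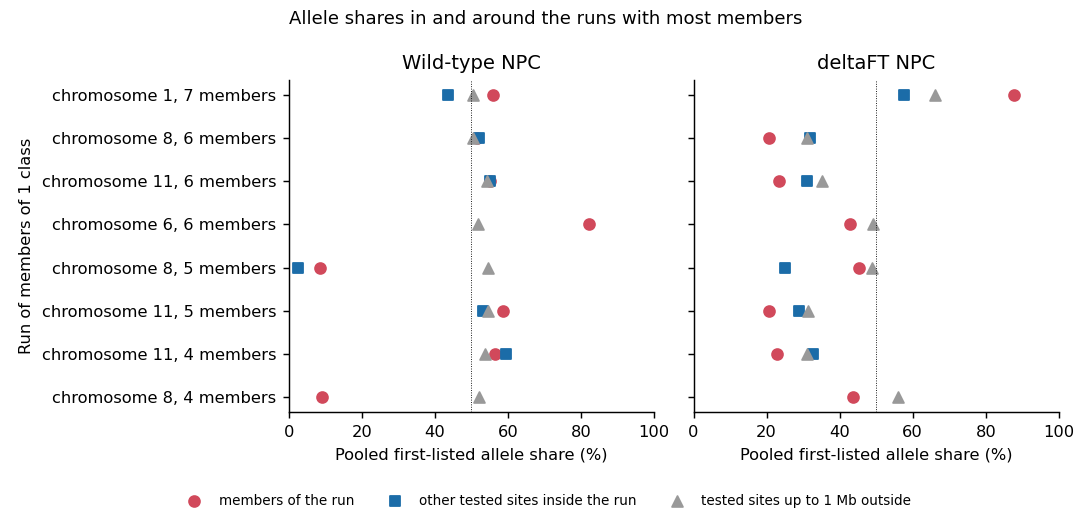
Pooled first-listed share (%) in wild-type NPC (left) and deltaFT NPC (right) for the 8 runs with most members; circles are members, squares the other tested sites inside the run and triangles tested sites up to 1 Mb outside. The run of 6 on chromosome 6 and that of 4 on chromosome 8 have no square, and in wild type their circles lie at 82.1% and 9.03% with triangles at 51.8% and 52.1%.

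Sites near the limits show how fine the division is. Just inside the share limit were chr1:180266444-180266862, with 10 and 30 wild-type reads and 13 and 12 deltaFT reads, and chr10:127813723-127814231, with 8 and 24 and 38 and 35. The third was chr11:90003577-90004024, with 61 and 58 in wild type and 16 and 48 in deltaFT. Just outside it, chr8:73429688-73430034 had a deltaFT share of 25.3% (71 and 210 reads), chr11:107887163-107887355 one of 25.3% (21 and 62) and chr14:121267676-121268060 one of 74.7% (56 and 19). At the limit on the difference, chr16:85357863-85358202 was inside with exactly 25 points (25 and 25 reads against 12 and 36), next to chr11:45609240-45609506 and chr19:41556671-41556872, each with 25.1 points. Outside were chr7:146870558-146870808 with 24.98, chr17:48176431-48176758 with 24.9 and chr11:65559263-65559688 with 24.9 points. The sites on either side of a limit differed by far less than the counting error of their shares.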

How the data were processed

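ATAC-seq peak lists of 7 samples, 1 per group, were used. Processing used cutadapt, Bowtie2 and MACS2 on build mm9 (per the submitters' processing notes). How reads were assigned to alleles is not stated in any source used here. For the female lines the authors deposited peaks reproducible between 2 libraries (irreproducible discovery rate limit 0.05) with raw counts of all reads and of each allele. Neither the strain behind each allele nor whether a count covers 1 or both libraries is stated, so alleles go by their column order, first-listed or second-listed. The deposited −log10 p of MACS2 was not used beyond the presence of a peak. Coordinates are printed as deposited, and a genome browser shows each start 1 base later. Gene names and sequences are not reported, as no mm9 genome or annotation was used here.

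Autosomal peaks held 10724324 reads in wild-type NPC (4165962 allelic), 10845382 in deltaFT (4411491) and 6176798 in mESC (2475697). Peaks were matched by largest overlap of at least 1 bp. Requiring an overlap of at least 0.5 of both peaks left 499 members among 18313 tested sites. Software was python 3.11.15 with scipy 1.17.1 (exact intervals), pandas 2.3.3, numpy 2.4.6 and, for plots, matplotlib 3.10.9. The calling step was tested on simulated counts with strong skews planted only at sites well above the read minimum. Recovery of weaker skews, or at sites with fewer reads, was not tested. With 1 sample per group no p-value was computed. The members, classes and lists were chosen with earlier results of these data known. Named sites are the 5 members of each class with most allelic reads, the 3 runs with most members and 3 sites on each side of each limit; others are said to be chosen after their values were seen. Alternatives changed the read minimum, both limits, the overlap, the window, the mESC list and minimum, and centred shares on the chromosome.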

Additional observations from a re-analysis of the deposited data

How the results depend on the processing

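Of 72 alternative values, 47 stayed close to the main one, 21 moved and 4 changed sign. Shares and medians were called close when inside the interval of the main value. Counts were judged by their ratio to it, so 386 and 813 members passed as close to 575. With at least 50 allelic reads there were 291 members, 131 skewed in wild type only and 155 in deltaFT only. With a difference of 35 points there were 275, of which 129 and 133. The share with an mESC peak was then 52.9% and 47.3%, and 58.3% (61.7% of tested sites) when mESC library lists were added. Without chromosome 12, 96.6% of members were balanced in mESC (98.3% of tested sites). The share with a like member within 1 Mb, 28.9%, became 23.7% with 50 reads, 23.1% with limits of 20% and 80%, 20.4% with a 35-point difference and 23.9% with shares centred on the chromosome. A window of 100 kb gave 10.6% and one of 5 Mb 53.4%. In 2 alternatives chosen after seeing the data it was 23.5% without members whose neighbours held 60% or more of the favoured allele and 21.9% without chromosomes 8 and 11. The neighbours of a member lay a median of 2.51 points from 50% (2.16 in wild type and 1.86 in deltaFT over tested sites), 1.70 within 5 Mb, and 2.14 and 2.15 under those added alternatives. The median log2 change of total reads at members, deltaFT over wild type, was 0.07, with an interval over members of -0.047 to 0.146. It became -0.028 with limits of 20% and 80%, -0.0072 with 35 points, and -0.0022 and -0.0092 under the added alternatives. These are the 4 sign changes, and all lie inside that interval. The cause of these shifts was not tested. No paired analysis was possible because each group is 1 sample and allele counts are given once per line, so no replicate could be left out either. Depth limits the shares: members had a median of 64 allelic reads in wild type.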
